A study of Homo sapiens with 12 samples.

Results

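The block studied here is a stretch of human chromosome 19, bands 19q12 and 19q13, in which peaks of the pancreatic cancer line Panc327 lay on a raised input background. Its members were all H3K27ac peaks that overlapped chr19:30000000-32000000 or chr19:34000000-40000000 on the hg19 build, the first stretch holding CCNE1 and the second ACTN4. These peaks numbered 1235 of 190767, and merging those that shared at least 1 bp gave 323 of 58994 regions. The block was chosen from the Panc327 background itself, so its height there is a description and was not tested. H3K27ac was profiled by ChIP-seq in untreated BxPC3, Panc327 and SUIT2 cells, all human pancreatic ductal adenocarcinoma cell lines kept in standard culture, with 2 ChIP libraries and 2 input libraries a line. BxPC3 is an established line from a primary tumour and SUIT2 an established line from a metastasis. Each of the 6 ChIP libraries had its own peak list, and the inputs were used only in the form of the local background behind each peak. No label says that the 2 libraries of a line came from separate cultures, so their spread may be technical.

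H3K27ac, acetylation of lysine 27 of histone H3, marks active promoters and enhancers, and broad stretches of it often lie over highly transcribed genes. An input library is made from the same sheared chromatin without the antibody step, and a peak caller uses its local read density as the level that a peak must exceed. CCNE1 encodes cyclin E1, the partner of CDK2 in the passage from G1 into S phase. ACTN4 encodes alpha-actinin-4, which crosslinks actin filaments. Segments of 19q around both genes are known to be amplified in some carcinomas, those of the pancreas included. DNA copy number was not measured here.

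The promoters of the 2 genes that place the block are shown because both had H3K27ac regions in all 6 libraries. The sequences are RefSeq's, from the GRCh38.p14 build, plus strand, 250 bases before to 50 bases after the gene's start, and their positions were not carried over to hg19. Capitals mark matches, on either strand, to GGGCGG (the GC box bound by SP1) and TGANTCA (the AP-1 site).
CCNE1 promoter: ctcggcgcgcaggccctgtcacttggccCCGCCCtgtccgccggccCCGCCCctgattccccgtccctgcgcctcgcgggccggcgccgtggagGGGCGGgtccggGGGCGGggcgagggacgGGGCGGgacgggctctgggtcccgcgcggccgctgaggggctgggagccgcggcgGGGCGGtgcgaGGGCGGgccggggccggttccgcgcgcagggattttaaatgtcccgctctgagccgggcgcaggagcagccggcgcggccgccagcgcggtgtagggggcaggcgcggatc
ACTN4 promoter: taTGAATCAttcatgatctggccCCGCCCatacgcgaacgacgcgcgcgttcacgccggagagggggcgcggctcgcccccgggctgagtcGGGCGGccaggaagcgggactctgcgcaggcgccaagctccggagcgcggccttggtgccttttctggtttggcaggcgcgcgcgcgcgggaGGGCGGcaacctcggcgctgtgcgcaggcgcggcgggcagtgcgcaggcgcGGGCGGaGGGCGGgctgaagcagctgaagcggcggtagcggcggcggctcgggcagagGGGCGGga
The CCNE1 promoter held 7 GC boxes and 47 CpG dinucleotides in 300 bases, and its GC content was 81%. The ACTN4 promoter printed held 6 GC boxes, 1 AP-1 match and 47 CpG dinucleotides. RefSeq lists another ACTN4 promoter, not printed, which held 4 CpG dinucleotides and 0 matches to the motifs searched. Over 35116 RefSeq promoters of that length, 45.0% held a GC box, 7.71% an AP-1 match, and the median number of CpG dinucleotides was 14. Neither printed window matched TTTNNCGC, an E2F site found in 6.89% of promoters, or CCAAT, found in 34.6%. No match overlapped another. In the order of protein-coding genes on GRCh38.p14, CCNE1 lies between C19orf12 and URI1, with POP4 and PLEKHF1 close on its proximal side. ACTN4 lies between EIF3K, a translation initiation factor subunit, and CAPN12, a calpain protease, with the galectin genes LGALS7 and LGALS4 beyond it. Genes were assigned to no other region, because the peaks are on hg19.

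Background here is a peak's local background divided by the genome-wide background of its library, which is the lowest value it can take and equals 1. Over the block, the median of this ratio was 3.73 and 3.78 in Panc327 replicates 1 and 2. It was 1.53 and 1.27 in BxPC3 and 1.00 and 1.00 in SUIT2. In Panc327 the genome-wide medians were 1.26 and 1.34. None of the Panc327 block peaks lay at the genome-wide level (0%), against 25.8% and 20.2% of all peaks in its lists. In BxPC3 the shares were 6.01% and 20.7% of block peaks, against 24.9% and 44.0% of all peaks. The SUIT2 shares were 71.8% and 88.6% in the block, against 39.6% and 55.3% of all peaks. On the rest of chromosome 19 the SUIT2 shares were 73.0% and 84.6%. The block was not uniform, and the background formed 2 levels in Panc327. The lower level covered 30 to 32 Mb, called the CCNE1 stretch below, with medians of 2.43 and 2.65. It also covered 34 Mb to 38.1 Mb, the middle stretch, with medians of 2.04 and 2.06. The lower level was not found in the block alone: the window from 58 to 60 Mb had medians of 1.94 and 2.09 in Panc327. Nor was it found in Panc327 alone, since from 37 to 38 Mb BxPC3 replicate 1 had a median of 2.04, although BxPC3 replicate 2 had 1.15. The upper level, called the step, began near 38.1 Mb, and from there to 40 Mb the medians were 4.38 and 4.70.

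**Figure D1:**
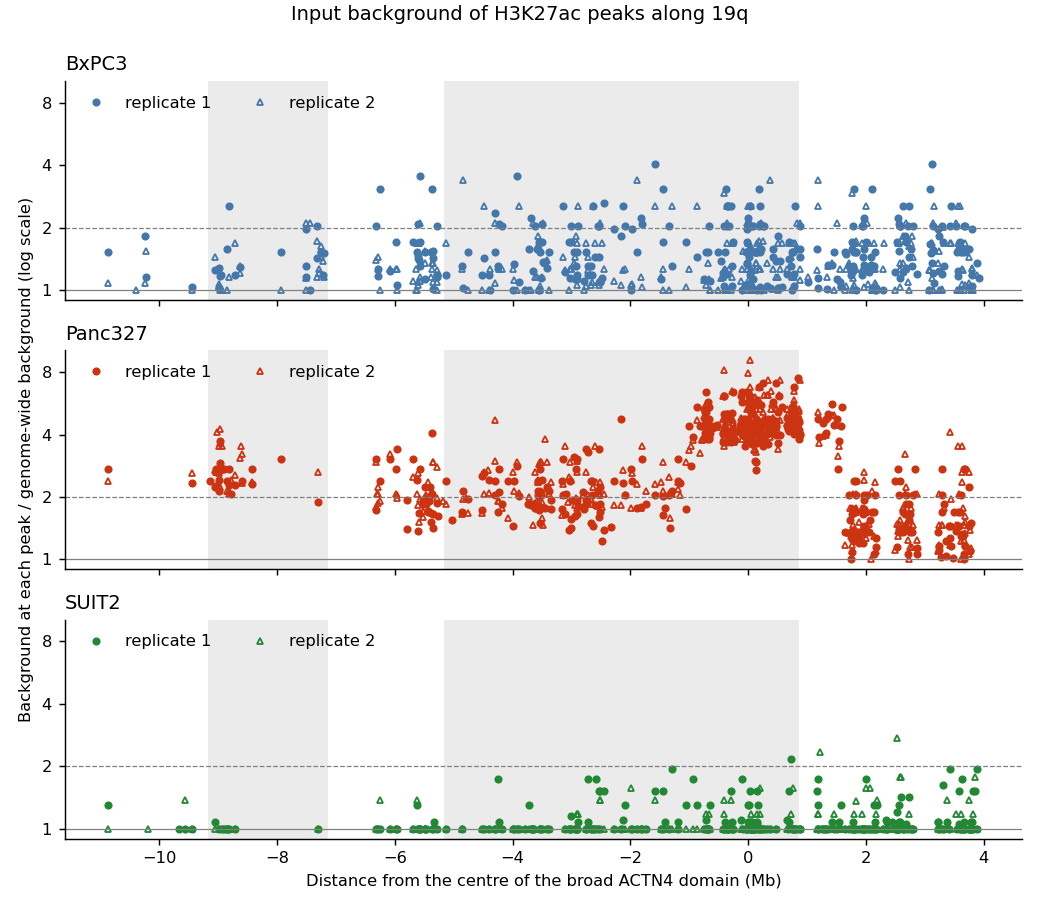
Local background of every peak, divided by the genome-wide background of its library (log scale), against distance in Mb from the centre of the broad ACTN4 domain, for both libraries of each line. Grey bands are the block, and the dashed line is 2 times the genome-wide level. Panc327 peaks rise to about 4 times over the ACTN4 domain, while most SUIT2 peaks lie at 1.

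The edges of the step were placed between neighbouring marked regions by fitting a single change in level. Of the regions marked in Panc327, the last before the rise was chr19:38084575-38086281, with a background of 1.75 and 2.94 in replicates 1 and 2. The next was chr19:38144563-38147490, with 4.41 and 3.37, and the gap between them was 58.3 kb. The 8 marked regions before the gap had medians of 2.09 and 2.27, and the 8 after it 4.41 and 3.80. In replicate 1 the highest before the gap, 3.05, exceeded the lowest after it, 2.83. In replicate 2 these values were 2.94 and 3.25. At the distal edge the last raised region marked in Panc327 was chr19:40695744-40698478, with 3.73 and 3.53, and the next was chr19:40789454-40793213, with 1.36 and 1.17. The gap was 91.0 kb, and the medians of 8 regions fell there from 4.5 and 4.21 to 1.37 and 1.32. The lowest of the 8 before, 2.74 and 3.16, lay above the highest of the 8 after, 2.04 and 1.76. Inside this gap Panc327 replicate 1 had 2 further peaks that replicate 2 lacked, chr19:40722955-40724119 and chr19:40732068-40732716, at 4.41 and 5.43. By the regions marked in both libraries the step was 2.55 to 2.70 Mb long, and it ran past the 40 Mb end of the block. Between 40 Mb and its distal edge the Panc327 medians were 4.19 and 4.74. In each BxPC3 and SUIT2 library, its own 8 nearest called regions on each side of both gaps had medians between 1.00 and 1.87.

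The proximal edge of the lower level was not resolved. The nearest regions before 30 Mb, chr19:28282072-28286109 and chr19:29702605-29704769, already had a background of 2.72 and 2.40 and of 2.34 and 2.60 in Panc327. The 2 Mb just outside the choice, 32 to 34 Mb, had medians of 1.93 and 2.05, and the 2 Mb just inside, 34 to 36 Mb, had 2.04 and 2.06. With almost the same values, these windows lay on opposite sides of the level of 2 in replicate 1. In replicate 2 both lay above it. In windows of 500 kb, the stretch holding ACTN4 at or above 2 in both Panc327 libraries ran from 37 to 40.5 Mb. At 1.5 times it ran from 30 to 41 Mb, and at 3 times from 38 to 40.5 Mb. Windows with fewer than 3 peaks in either library were passed over. By the same rule, a separate stretch at or above 2 in both libraries ran from 30 to 33.5 Mb.

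A region was called marked in a line when both of its libraries had a peak there. The block held 254 marked regions, and Panc327 marked 204 of them, or 80.3%. Its share was 46% over the genome's marked regions and 75.1% on the rest of chromosome 19. BxPC3 marked 160 (63.0%, genome 67.7%) and SUIT2 marked 137 (53.9%, genome 62.2%). All 6 libraries had a peak in 104 block regions, or 40.9%, against 29.4% over the genome and 46.2% on the rest of chromosome 19. Panc327 alone marked 62 regions with no peak in the other 4 libraries, 24.4% of the marked regions, against 7.9% over the genome and 14.6% on the rest of chromosome 19. BxPC3 alone marked 16 regions (6.3%, genome 17.6%) and SUIT2 alone 10 (3.94%, genome 17.7%). A single region was marked in both other lines with no peak in Panc327 (0.394%, genome 5.71%). In the same sense 23 regions were missing from SUIT2 (9.06%, genome 5.21%) and 9 from BxPC3 (3.54%, genome 1.6%). Without Panc327 replicate 2 the regions of Panc327 alone numbered 104, and without SUIT2 replicate 1 those of SUIT2 alone numbered 18. The regions missing from Panc327 numbered 1 to 4 when any 1 library was left out: 4 without Panc327 replicate 2, 2 without Panc327 replicate 1 and 3 without BxPC3 replicate 1. Genome shares with a library left out are not given, so these counts cannot be set against the shares above.

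Regions of Panc327 alone and of BxPC3 alone were spread unevenly along the block. Of the regions of Panc327 alone, 41 lay in the step, where they made up 32.3% of 127 marked regions. Another 13 lay in the middle stretch, 13.4% of 97, and 8 in the CCNE1 stretch, 26.7% of 30. Of the 16 regions of BxPC3 alone, 11 lay in the CCNE1 stretch, 36.7% of its marked regions. Of the 10 of SUIT2 alone, 6 lay in the step, 4.72% of its marked regions. That share was 3.09% in the middle stretch and 3.33% in the CCNE1 stretch. Regions shared by all 6 libraries made up 58.8% of marked regions in the middle stretch, 32.3% in the step and 20% in the CCNE1 stretch. The longest run of consecutive marked regions of BxPC3 alone held 6 and spanned 192 kb from chr19:31640364-31640919 to chr19:31829650-31832087. The longest run of Panc327 alone held 4 over 98.9 kb within the step, and that of SUIT2 alone held 3 over 3.54 kb.

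**Figure D2:**
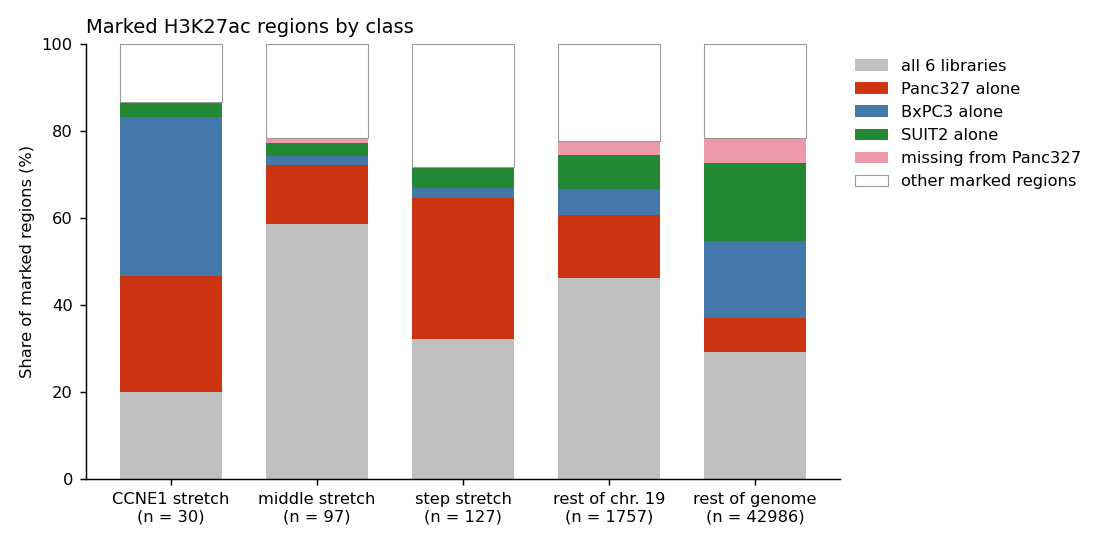
Share of marked regions (%) by class in the 3 stretches of the block, the rest of chromosome 19 and the rest of the genome, with the number of marked regions under each bar. Regions of Panc327 alone make up 32.3% in the step stretch and 7.8% in the rest of the genome, and regions of BxPC3 alone 36.7% in the CCNE1 stretch.

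The share of each list that lay in the block was 1.02% and 0.882% in Panc327, 0.536% and 0.516% in BxPC3 and 0.520% and 0.503% in SUIT2. Both Panc327 libraries were above all 4 others. The mean was 0.950% ± 0.0968 (SD, n = 2) against 0.519% ± 0.0138 (SD, n = 4), a log2 difference of 0.87 or 1.83 times. The two-sided exact permutation test over libraries gave p = 0.0667, the smallest that 15 splits of 2 against 4 allow, so the test could not reach 0.05. Within chromosome 19, with the share taken of the list's chromosome 19 peaks, the log2 difference was 0.28 with the same exact p of 0.0667. The block was chosen from the background at Panc327's own peaks, so neither p is independent support for a difference. Panc327 had 283 and 257 peaks in the block, BxPC3 183 and 198, and SUIT2 156 and 158. The peak lists as a whole ran from 27776 to 38335 peaks.

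A higher background also raises the number of reads that a peak needs. At the median background of the step, the least pile-up that would pass the lists' p threshold was 28 and 43 reads in Panc327 replicates 1 and 2, against 16 and 22 at the median of the rest of the genome. The regions of Panc327 alone in the step before 40 Mb had median pile-ups of 73 and 79 reads and median folds over background of 10.4 and 5.79. Such regions in the rest of the genome had 46 and 40 reads but folds of 15.5 and 8.31. Those in the middle stretch had 97 and 60 reads and folds of 24.7 and 8.43. The 5 between 40 Mb and the distal edge had 179 and 95 reads and folds of 27.7 and 7.77. Compared with the rest of the genome, their median fold was higher in replicate 1 and lower in replicate 2. When only peaks were kept whose fold would be callable at the genome-wide background, an alternative chosen after the data were seen, the regions of Panc327 alone in the block numbered 43. The genome's share under this filter is not given, so this count cannot be set against the genome. Of block regions with a peak in either library of a line, 72.6% had both in Panc327, 92.5% in BxPC3 and 90.1% in SUIT2, against 61.5%, 81.9% and 85.9% over the genome. Of block regions with no peak in the other lines, 62 had a peak in both Panc327 libraries, 28 in replicate 1 only and 25 in replicate 2 only. Over the genome these counts were 3415, 3538 and 3537.

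The ChIP pile-up was then compared in the 104 regions that all 6 libraries called. Each region's highest pile-up was divided by the library's median over such regions outside the block. The block medians were 1.84 and 1.98 in Panc327 replicates 1 and 2, 1.08 and 1.09 in BxPC3 and 0.652 and 0.636 in SUIT2. Both Panc327 libraries lay above all 4 others, and both SUIT2 libraries lay below both BxPC3 libraries. Panc327 was higher by 1.19 on the log2 scale, or 2.28 times (1.91 ± 0.101, SD, n = 2, against 0.866 ± 0.257, SD, n = 4). The two-sided exact permutation p was 0.0667, again the smallest possible. Pile-up and the background that chose the block were solved from the same deposited values, so this p is no independent support either. In 79 of the 104 regions both Panc327 libraries exceeded the other 4. The share of such regions was 20.3% over the genome and 27.6% on the rest of chromosome 19. The input background was raised in the same regions, and its part in the pile-up was not tested.

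In the step, from 38.1 to 40 Mb, the Panc327 medians were 2.82 and 4.14, with 1.04 and 0.928 in BxPC3 and 0.676 and 0.696 in SUIT2. In the middle stretch they were 1.48 and 1.73, with 1.17 and 1.12 in BxPC3 and 0.615 and 0.643 in SUIT2. In the CCNE1 stretch, with 6 regions only, they were 2.11 and 2.06, with 1.12 and 1.15 in BxPC3 and 0.542 and 0.45 in SUIT2. Between 40 Mb and the distal edge, where the background was as high as in the step before 40 Mb, they were 1.98 and 2.62, with replicate 1 below its value in the CCNE1 stretch. On the rest of chromosome 19 both Panc327 medians were 1.02, with 1.06 and 1.05 in BxPC3 and 0.775 and 0.793 in SUIT2. Both Panc327 libraries exceeded the other 4 in 39 of 41 regions of the step, 35 of 57 of the middle stretch and 5 of 6 of the CCNE1 stretch. The exceptions in the step were chr19:39164575-39167942, within ACTN4, and chr19:39352418-39356849. In a single block region, chr19:36626516-36633006 in the middle stretch, both Panc327 libraries lay below all others, at 1.98 and 2.03 against 3.11, 3.01, 2.11 and 2.12.

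In the fold over background the difference was smaller. The fold adds 1 to pile-up and background before dividing. The genome-wide background of the Panc327 libraries was 1.46 and 2.85 reads, so the fold divides out a raised background only in part. The relative fold over background in the same 104 regions had medians of 1.07 and 1.22 in Panc327, 0.955 and 1.02 in BxPC3 and 0.692 and 0.692 in SUIT2. The log2 difference was 0.46, or 1.38 times. Since the fold holds the background that chose the block, this is a description with no test. Both Panc327 libraries lay above the other 4 in 38 of the 104 regions, against 15% over the genome, and below them in 5, against 12.5%. The 5 were chr19:36235398-36237590, chr19:36389143-36392622 and chr19:36626516-36633006 in the middle stretch and chr19:39134904-39162835 and chr19:39164575-39167942 at ACTN4. Of the 204 regions marked in Panc327, 153 had at least 2 times the genome-wide background in both libraries, 106 of 106 in the step. The genome's share was 5.39%, and this is the measure that chose the block.

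**Figure D3:**
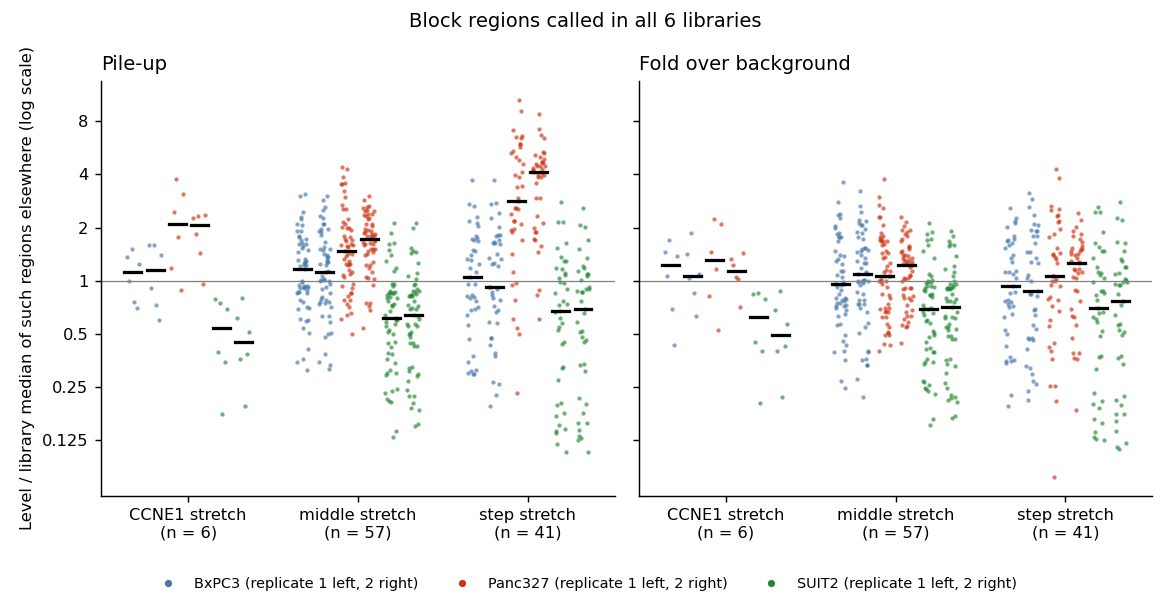
Pile-up (left) and fold over background (right) of block regions called in all 6 libraries, divided by the library's median over such regions outside the block (log scale). Points are regions, bars are medians, and replicate 1 stands to the left of replicate 2. The Panc327 pile-up medians of 2.82 and 4.14 in the step stretch stand above the others, while the Panc327 fold medians there, 1.06 and 1.26, lie closer to 1.

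At CCNE1, the cyclin E1 gene, a single region within 25 kb of the gene's stated position was called in all 6 libraries, chr19:30301687-30303760, 2074 bp long. Its highest pile-up was 344 and 132 reads in Panc327, 121 and 172 in BxPC3 and 46 and 55 in SUIT2. Raw reads follow each library's depth. Relative to the library medians the levels were 1.76 and 1.43 in Panc327, 0.761 and 0.732 in BxPC3 and 0.176 and 0.196 in SUIT2. In that measure the 3 lines did not overlap, with SUIT2 lowest. The Panc327 background there was 2.38 and 2.14, and the fold over background was 77.3 and 18.7 in Panc327, 22.5 and 33.6 in BxPC3 and 11 and 12.1 in SUIT2. Divided by the library's median fold over shared regions outside the block, this was 1.17 and 1.02 in Panc327, 0.695 and 0.857 in BxPC3 and 0.204 and 0.219 in SUIT2, again with no overlap. The peak at CCNE1 was 1.74 and 1.95 kb wide in BxPC3 and 2.07 and 1.96 kb in Panc327. SUIT2 had 2 narrower peaks in its place, the wider of 0.591 and 0.714 kb.

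At ACTN4, the gene of alpha-actinin-4, H3K27ac formed the broadest domains of the block. The broader, chr19:39134904-39162835, was 27932 bp long and was followed by chr19:39168311-39190852, 22542 bp long. The first domain's highest pile-up was 1273 and 807 reads in Panc327, 592 and 873 in BxPC3 and 735 and 719 in SUIT2. Relative to the library medians this was 6.53 and 8.77 in Panc327, 3.72 and 3.71 in BxPC3 and 2.81 and 2.57 in SUIT2. The second domain had relative pile-ups of 3.37 and 7.21 in Panc327, 1.48 and 1.64 in BxPC3 and 1.35 and 1.21 in SUIT2. In relative pile-up Panc327 was above the other lines in both domains, and its replicates lay further apart than those of BxPC3 or SUIT2. The background at the first domain was 4.75 and 4.74 in Panc327. The fold there was 122 and 36.7, against 83.1 and 114 in BxPC3 and 139 and 156 in SUIT2. Divided by the library's median fold over shared regions outside the block, this was 1.846 and 2.004 in Panc327. It was 2.565 and 2.911 in BxPC3 and 2.599 and 2.809 in SUIT2, so both Panc327 libraries lay below the others. In the second domain this relative fold was 1.002 and 1.343 in Panc327, 1.349 and 1.792 in BxPC3 and 1.548 and 1.327 in SUIT2.

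The first ACTN4 domain was called as 2 peaks and 1 peak in SUIT2 replicates 1 and 2, as 3 and 5 in BxPC3 and as 7 and 3 in Panc327. The second was called as 4 and 3 peaks in SUIT2, 6 and 8 in BxPC3 and 4 and 5 in Panc327. The widest SUIT2 peak over the gene was 25.5 and 27.8 kb, against 11.5 and 12.1 kb in BxPC3 and 6.63 and 13 kb in Panc327. Peaks covered 61.8% and 64.8% of the ACTN4 span in SUIT2, 42.5% and 48.2% in BxPC3 and 37.8% and 48.0% in Panc327. Panc327 therefore had the highest relative pile-up in both broad domains, though not the highest relative fold, and SUIT2 the widest coverage. SUIT2 peaks were also wider over the whole lists. Their median widths were 1504 and 1481 bp, against 1070 and 1030 bp in BxPC3 and 1008 and 1292 bp in Panc327. Within its own list, the widest ACTN4 peak ranked 26 and 25 in SUIT2, 25 and 29 in BxPC3 and 61 and 13 in Panc327. The short region between the domains, chr19:39164575-39167942, had 45 and 56 reads in Panc327, 60 and 88 in BxPC3 and 53 and 50 in SUIT2. Over the distal part of the gene the calls were scattered, and none of the remaining regions was called in all 6 libraries.

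**Figure D4:**
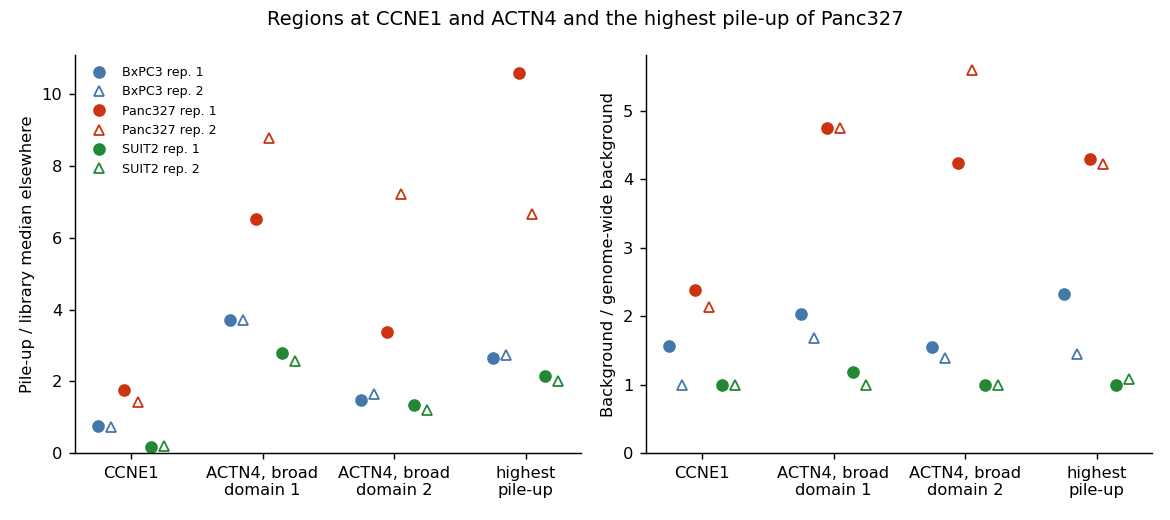
Relative pile-up (left) and background relative to the genome-wide level (right) in each library at the CCNE1 region, the 2 broad ACTN4 domains and the block region with the highest Panc327 pile-up. The Panc327 points lie above those of BxPC3 and SUIT2 in every region, with relative pile-ups of 6.53 and 8.77 at the first ACTN4 domain.

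The 5 regions of the block with the highest mean pile-up rank in Panc327 lay in the step. The region chr19:39337934-39344677 ranked 2 and 4 among all Panc327 regions of the genome in replicates 1 and 2, with 2061 and 612 reads. It had 423 and 646 reads in BxPC3 and 566 and 562 in SUIT2, and relative pile-ups of 10.6 and 6.65 in Panc327 against 2.66, 2.75, 2.16 and 2.01 in the others. The first ACTN4 domain ranked 11 and 2. The region chr19:39831190-39834306 ranked 4 and 10, with relative pile-ups of 9.14 and 5.33 in Panc327, 1.75 and 1.71 in BxPC3 and 1.07 and 1.09 in SUIT2. The 17024 bp region chr19:39887995-39905018 ranked 10 and 5. Another, chr19:39282659-39285416, ranked 8 and 8 with 1325 and 517 reads, had 230 and 338 in BxPC3, and had no peak in SUIT2.

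Among the broadest regions shared by all 6 libraries, 4 lay in the step and 1 in the middle stretch. The last, chr19:35605271-35618878, was 13608 bp long and had relative pile-ups of 3.0 and 2.86 in BxPC3, falling to 1.73 and 1.79 in Panc327, with SUIT2 at 0.21 and 0.189. Here BxPC3 was highest, in contrast to the step. The region chr19:38751757-38765719, 13963 bp long, had 7.12 and 5.15 in Panc327, 2.18 and 2.26 in BxPC3 and 1.53 and 1.52 in SUIT2.

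The broadest region of Panc327 alone was chr19:39345078-39348972, 3895 bp long, with 366 and 465 reads. It lay directly beside the region with the highest pile-up, which all lines shared. In the step lay also chr19:38717074-38720549, with 228 and 111 reads. The middle stretch held chr19:35530553-35533343, with 217 and 126 reads, and the CCNE1 stretch chr19:30716353-30719984, with 86 and 53, and chr19:30561149-30563597, with 66 and 47. The background at these 5 regions ran from 1.77 to 5.29 in Panc327. The last marked region of the block in Panc327, chr19:39997480-39998697, was also marked in Panc327 alone, with 241 and 131 reads.

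Regions of BxPC3 alone clustered near 31.6 to 31.9 Mb, distal of CCNE1. The broadest were chr19:31829650-31832087, with 86 and 114 reads in BxPC3 replicates 1 and 2, and chr19:31942297-31944435, with 108 and 158. The fifth by covered bases, chr19:31704576-31705915, lay in the same cluster and had 83 and 138. Within this cluster Panc327 marked only chr19:31839641-31842388, with 192 and 66 reads, a region that SUIT2 shared with 66 and 79 and that BxPC3 lacked. In the step, chr19:39359437-39360996 had 122 and 135 reads and chr19:39563870-39565491 had 110 and 167 in BxPC3 alone.

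The broadest region of SUIT2 alone, chr19:39249826-39255565, was 5740 bp long and had 122 and 129 reads. It lay distal of ACTN4, and chr19:39308829-39312445 beyond it had 76 and 101 reads. The other 3 of the broadest were short: chr19:35496547-35497297 had 48 and 46 reads, chr19:39294805-39295593 had 28 and 35, and chr19:39029227-39030053 had 31 and 32. The single region missing from Panc327, chr19:35350907-35351264, was 358 bp long, with 47 and 44 reads in BxPC3 and 42 and 36 in SUIT2. The first marked regions of the block's parts in Panc327, chr19:30096341-30097940 and chr19:34012078-34013366, were called in all 6 libraries.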

How the data were processed

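H3K27ac ChIP-seq peaks of 6 libraries were used, 2 each of BxPC3, Panc327 and SUIT2. Reads were processed with MACS2, Bowtie 1.1.1 and bcl2fastq 1.8.4 on the hg19 build, per the submitters' processing notes. No version or settings of MACS2 are given in the sources used here. The authors deposited 1 peak list a library, called separately, and each peak's deposited fold is a ratio, the ChIP pile-up over the local background. The deposited -log10 p-values and -log10 q-values are the peak caller's, with a lowest -log10 p of about 10 in each list. Total read numbers are not known, which limits the precision of single values.

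MACS2 is known to form the fold from pile-up and background with a pseudocount of 1 each, and the p from a Poisson tail. Solving both gave the pile-up in whole reads (tolerance 0.05) and the background for 99.99 to 100% of peaks, with pile-ups of BxPC3 rescaled by 0.752 and 0.652. All peaks sharing 1 bp were merged, and bedtools 2.31.1 gave the same 58994 regions. Step edges were the least-squares change in the log background over regions marked in Panc327. Tests were exact permutations over libraries. Named were the regions at CCNE1 and ACTN4, the 5 with most covered bases in each class, the 5 with the highest Panc327 pile-up ranks and the first and last marked ones. Other positions were chosen after their values were seen. Members, lists and the split into stretches were chosen with earlier results of these data known. Alternatives were a stricter q, equal list sizes, other merging and overlap, each library left out, other references, windows and thresholds. Scripts used Python 3.11.15, pandas 2.3.3, numpy 2.4.6, scipy 1.17.1 and matplotlib 3.10.9, and were tested on simulated data. Same-numbered libraries of different lines did not deviate together, with correlations over 12721 regions of -0.09, -0.02 and 0.06.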

Additional observations from a re-analysis of the deposited data

How the results depend on the processing

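With permutations kept within a replicate block, the log2 differences stayed as reported and the exact p was 0.111 for the share of peaks (0.87) and for the relative pile-up (1.19), the smallest p possible. Neither p is independent support, since the block was chosen from the background at Panc327 peaks. The relative fold (0.46), which holds the background that chose the block, is a description with no test. Over the block the log2 difference was positive under every alternative run, at 0.28 to 0.97 for the share, 1.00 to 1.32 for the pile-up and 0.38 to 0.57 for the fold. The Panc327 block background was 3.69 over peaks with a -log10 q of at least 20, 3.40 over a continuous block from 30 to 40 Mb and 1.83 as a 10th percentile. No region was missing from Panc327 (0) with equal list sizes, 2 were in the continuous block and 3 with the least callable fold. With 1 library left out, regions missing from Panc327 numbered 1 to 4, those of Panc327 alone 62 to 104 and those of SUIT2 alone 10 to 18. Genome shares under these settings are not given. The raised stretch began at 30 Mb at 1.5 times the background. It ended at 40.75 Mb in 250 kb windows, 41 Mb in 1000 kb windows and 41 Mb at 1.5 times. The causes of these moves were not tested. The background cannot fall below the genome-wide level, and regions under the peak threshold are not seen.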

Other observations

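The step went on past 40 Mb, where 26 regions lay before its distal edge. Of 23 marked regions there, Panc327 alone marked 5 (21.7%, genome 7.9%) and SUIT2 alone 5 (21.7%, genome 17.7%). Another 2 were marked in both other lines with no peak in Panc327 (8.7%, genome 5.71%), so the last 2 shares lay near those of the genome on few regions. The broadest of SUIT2 alone, chr19:40446354-40452891, was 6538 bp long with 273 and 332 reads, and chr19:40323166-40325222 had 105 and 142 reads in BxPC3 and 185 and 202 in SUIT2. Both Panc327 libraries exceeded the other 4 in relative pile-up in 9 of 9 regions called in all 6 libraries there. That share was 20.3% over the genome and 27.6% on the rest of chromosome 19. In these 9 regions the relative fold of Panc327 did not stand above the others. Its medians were 0.781 and 0.891, with 0.987 and 0.725 in BxPC3 and 0.870 and 0.776 in SUIT2. These regions were chosen after their values were seen.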
